A study of Rattus norvegicus with 49 samples.

Results

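The 10 genes described here encode enzymes of serine, glycine and one-carbon metabolism in the rat liver. They are Phgdh, Psat1, Psph, Shmt1, Shmt2, Sardh, Dmgdh, Gldc, Agxt and Mthfd1. They were taken by symbol, for the pathway they belong to, though the choice was made with earlier results of these data known. Each was read through the probe set with the highest mean among those annotated with that symbol alone. A probe set is the group of short array probes that reads 1 transcript. They are 10 of the 14217 genes measured in this way. All 10 had a mean over all arrays above the dim floor of log2 4.95, which is the 25th percentile of all values, and none was left out of any test.

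Serine is made from a glycolytic intermediate by Phgdh, Psat1 and Psph in that order. Serine hydroxymethyltransferase, with a cytosolic form (Shmt1) and a mitochondrial form (Shmt2), turns serine into glycine and passes a carbon unit to folate, and the folate-bound carbon units are interconverted in the cytosol by the trifunctional enzyme Mthfd1. Glycine is broken down in mitochondria by the glycine cleavage system, whose decarboxylase is Gldc, and it is also formed from glyoxylate by the aminotransferase Agxt and from choline through dimethylglycine and sarcosine, by Dmgdh and Sardh. The liver is known both for breaking serine down to pyruvate for glucose synthesis and for handling the methyl groups of choline.

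Livers of 49 male Sprague-Dawley rats, 8 to 10 weeks old when the study began, were measured on Affymetrix rat arrays with 1 array per rat. Group 1 ate ad libitum and was not fasted before sampling. Groups 3, 4 and 5 received 15%, 30% and 60% less food, which is 85%, 70% and 40% of the ad libitum amount, and were fasted overnight. Group 2, the control, ate ad libitum and was fasted overnight. At each of days 4 and 14 there were 5 rats per group, or 4 for group 1 on the later day, and no rat was sampled on both days. The text deposited with the series has all animals fasted, whereas the sample labels and the methods leave group 1 unfasted, and the sample labels were followed here. A comparison of group 1 with group 2 is therefore one of feeding against an overnight fast. The day is the only batch the labels name, so it cannot be told apart from a batch of sampling. The rats carry no shared numbers or cages in the labels and are numbered here only to name them. Each is a separate animal, so the p-values measure the spread between rats. The methods state that rats were housed in groups or in pairs. Cage mates cannot be picked out from the labels, so an effect of a shared cage was not tested.

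The values are intensities normalised by the authors with RMA, used here as log2. Medians of the arrays lay between 6.34 and 6.43, and the lowest intensity of any of the 10 genes, 37, has a rounding step of 0.04 on the log2 scale. All 6 hepatocyte markers were measured, with means of 12.28 to 14.99, while all 3 fat markers and 2 of 3 muscle markers (Acta1 and Myh7) lay below the dim floor. Erythroid markers stood apart in group 5 at day 14, with a summed intensity of 1224 to 3476, against 7365 to 10641 in group 2 at day 14. In group 4 at day 14 the sum was 3720 to 9570, and 2 of the 3 measured erythroid markers were called lower in each of these groups. Of all genes, 10.9% were called lower in group 5 at day 14 and 6.24% in group 4. Markers of stellate cells and fibroblasts were higher in group 1, with 2 of 6 called at day 4 (summed intensity 2414 to 4653, against 1490 to 2753 in group 2) and 3 of 6 at day 14 (2727 to 3511, against 1607 to 2634 in group 2). At day 14, 2 of 6 were also called higher in group 4 (2302 to 3282) and 1 of 6 in group 3 (2130 to 3193), where Agxt and Gldc were lower. Of all genes, 9.76% were called higher in group 1 at day 4, and 7.26%, 6.52% and 3.4% in groups 1, 4 and 3 at day 14. The part of the erythroid, stellate cell and fibroblast markers in the results below was not tested. In whole liver, fewer cells of a type and less RNA per cell cannot be told apart.

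The region around the start of a gene is where factors that set its transcription bind, so 3 windows are printed. They are those of Psat1 and Shmt2, the genes with the largest rises in fed rats, and of Shmt1, the cytosolic counterpart of Shmt2, which was lower in fed rats. RefSeq windows on the GRCr8 build, from 250 bases before to 50 after the start, were matched for 8 of the 10 genes, and Dmgdh and Mthfd1 had no entry in that table. Searched on both strands were TTGCATC, the letters of a C/EBP-ATF composite element to which ATF4 binds in genes of amino acid synthesis, CACGTG, an E-box, and CCAAT, the CCAAT box. Motifs on the other strand appear as their reverse complement and none overlapped another in the windows printed. Capitals mark these matches. The Psat1 window is chr1:222645359-222645658 on the minus strand, that of Shmt2 is chr7:65249518-65249817 on the minus strand, and that of Shmt1 is chr10:45990292-45990591 on the minus strand.
Psat1: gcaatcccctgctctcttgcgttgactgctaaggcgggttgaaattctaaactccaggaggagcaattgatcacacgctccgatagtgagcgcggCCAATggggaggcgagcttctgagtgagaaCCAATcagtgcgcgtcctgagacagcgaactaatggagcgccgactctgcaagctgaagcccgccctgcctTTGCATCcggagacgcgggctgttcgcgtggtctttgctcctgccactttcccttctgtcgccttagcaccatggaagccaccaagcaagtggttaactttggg
Shmt2: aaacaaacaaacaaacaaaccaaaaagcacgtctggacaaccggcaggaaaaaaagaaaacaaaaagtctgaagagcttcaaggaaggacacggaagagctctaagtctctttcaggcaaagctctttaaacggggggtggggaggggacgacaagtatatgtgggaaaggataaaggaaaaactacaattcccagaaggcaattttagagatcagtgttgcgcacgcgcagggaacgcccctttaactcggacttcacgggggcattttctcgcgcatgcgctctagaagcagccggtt
Shmt1: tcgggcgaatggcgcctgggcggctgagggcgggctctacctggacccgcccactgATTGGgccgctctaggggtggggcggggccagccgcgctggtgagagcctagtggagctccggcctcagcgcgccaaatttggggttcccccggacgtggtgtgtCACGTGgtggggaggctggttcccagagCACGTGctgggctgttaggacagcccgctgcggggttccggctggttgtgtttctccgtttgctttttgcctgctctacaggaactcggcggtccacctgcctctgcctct
The Psat1 window held the C/EBP-ATF letters once, at −54 bases from the start, and CCAAT boxes at −155 and −125. The Shmt1 window held 2 E-boxes, at −89 and −61, and a CCAAT box at −194, and the Shmt2 window held none of the 3 motifs. None of the other 7 windows, which belong to Phgdh, Psph, Gldc, Sardh and Agxt, held the C/EBP-ATF letters. Of all 33469 rat windows, 2.56% held the C/EBP-ATF letters, 6.42% held an E-box, 0.52% held at least 2 E-boxes and 37.5% held a CCAAT box. A match is a run of letters and not a measured binding site.

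**Figure D1:**
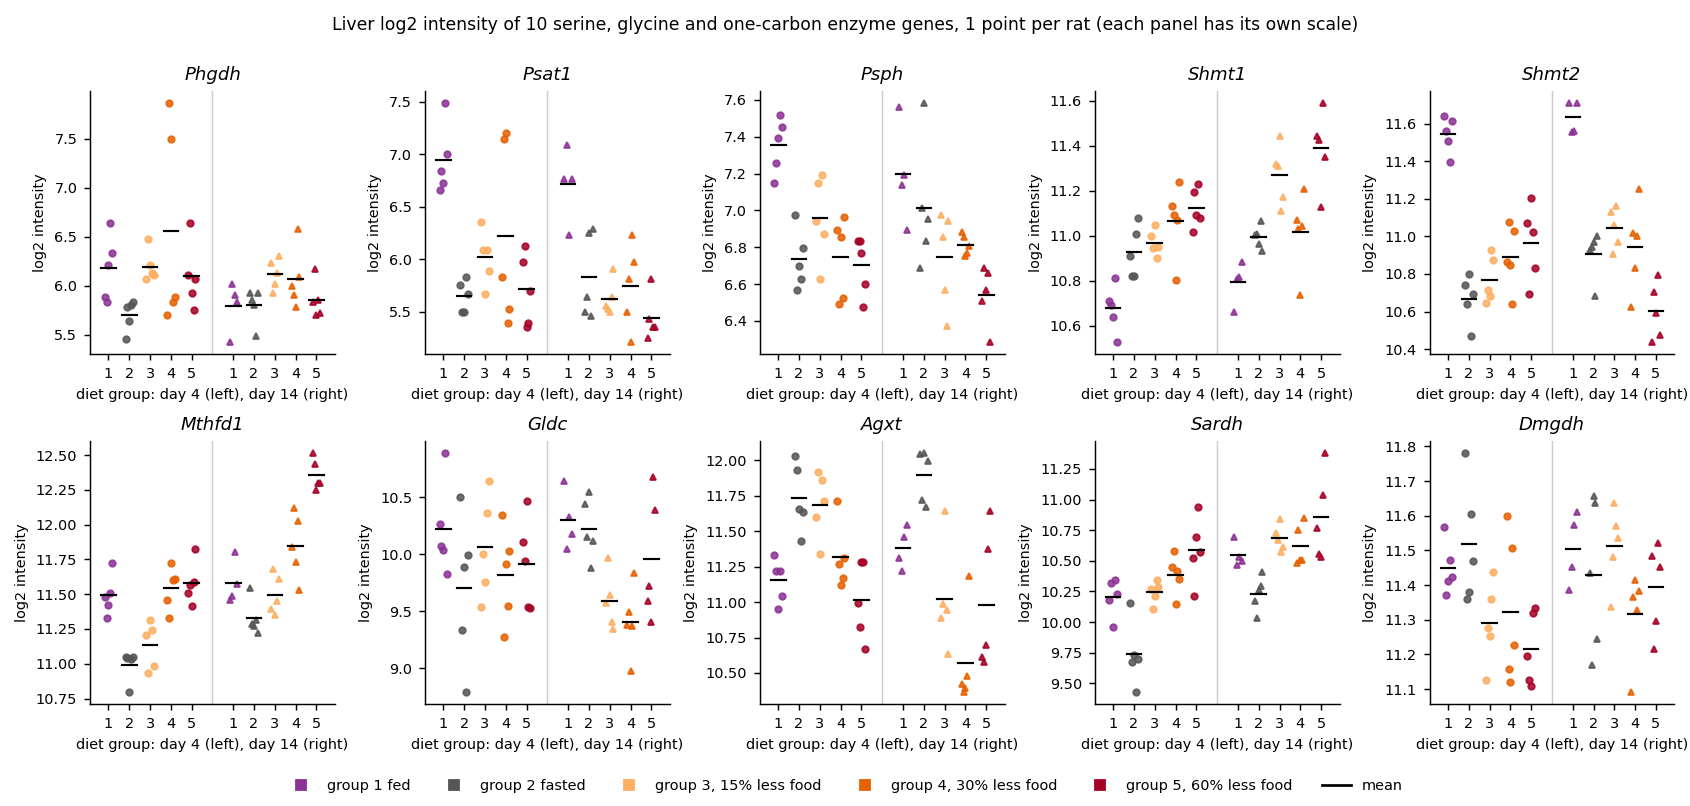
Log2 intensity of each gene (vertical axis, own scale per panel) in every rat, by diet group at day 4 (circles) and day 14 (triangles), with black bars for group means. Psat1 and Shmt2 stand high in the fed group 1, Mthfd1 is highest in group 5 at day 14 with a mean of 12.36, and Agxt is highest in group 2.

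Differences from group 2 of the same day were tested by limma over all 14217 genes, with an adjusted p under 0.1 (Benjamini-Hochberg) as the threshold for a call. In group 1, 6 of the 10 genes were higher at day 4 and 2 were lower, where 9.76% of all genes were higher and 11.5% lower. At day 14, group 1 had 3 of the genes higher and 2 lower, where the shares of all genes were 7.26% and 5.92%. In group 3 at day 4, 1 gene was higher and none lower, beside 0.113% of all genes higher and 0.141% lower. There 4 of the 10, and 1488 of all 14217 genes, had an unadjusted p under 0.05. In group 4 at day 4, 2 were higher and none lower, beside 3.05% and 2.38% of all genes. In group 5 at day 4, 2 were higher and 2 lower, beside 3.56% and 3.58% of all genes. At day 14 the counts were 2 higher and 2 lower in group 3 (3.4% and 3.14% of all genes), 2 and 2 in group 4 (6.52% and 6.24%), and 3 and 3 in group 5 (8.88% and 10.9%). The median difference of the 10 genes ran between −0.15 (group 5, day 14) and 0.49 (group 1, day 4), while that over all genes stayed between 0.00 and 0.01. All these comparisons of a day share the group 2 rats of that day.

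**Figure D2:**
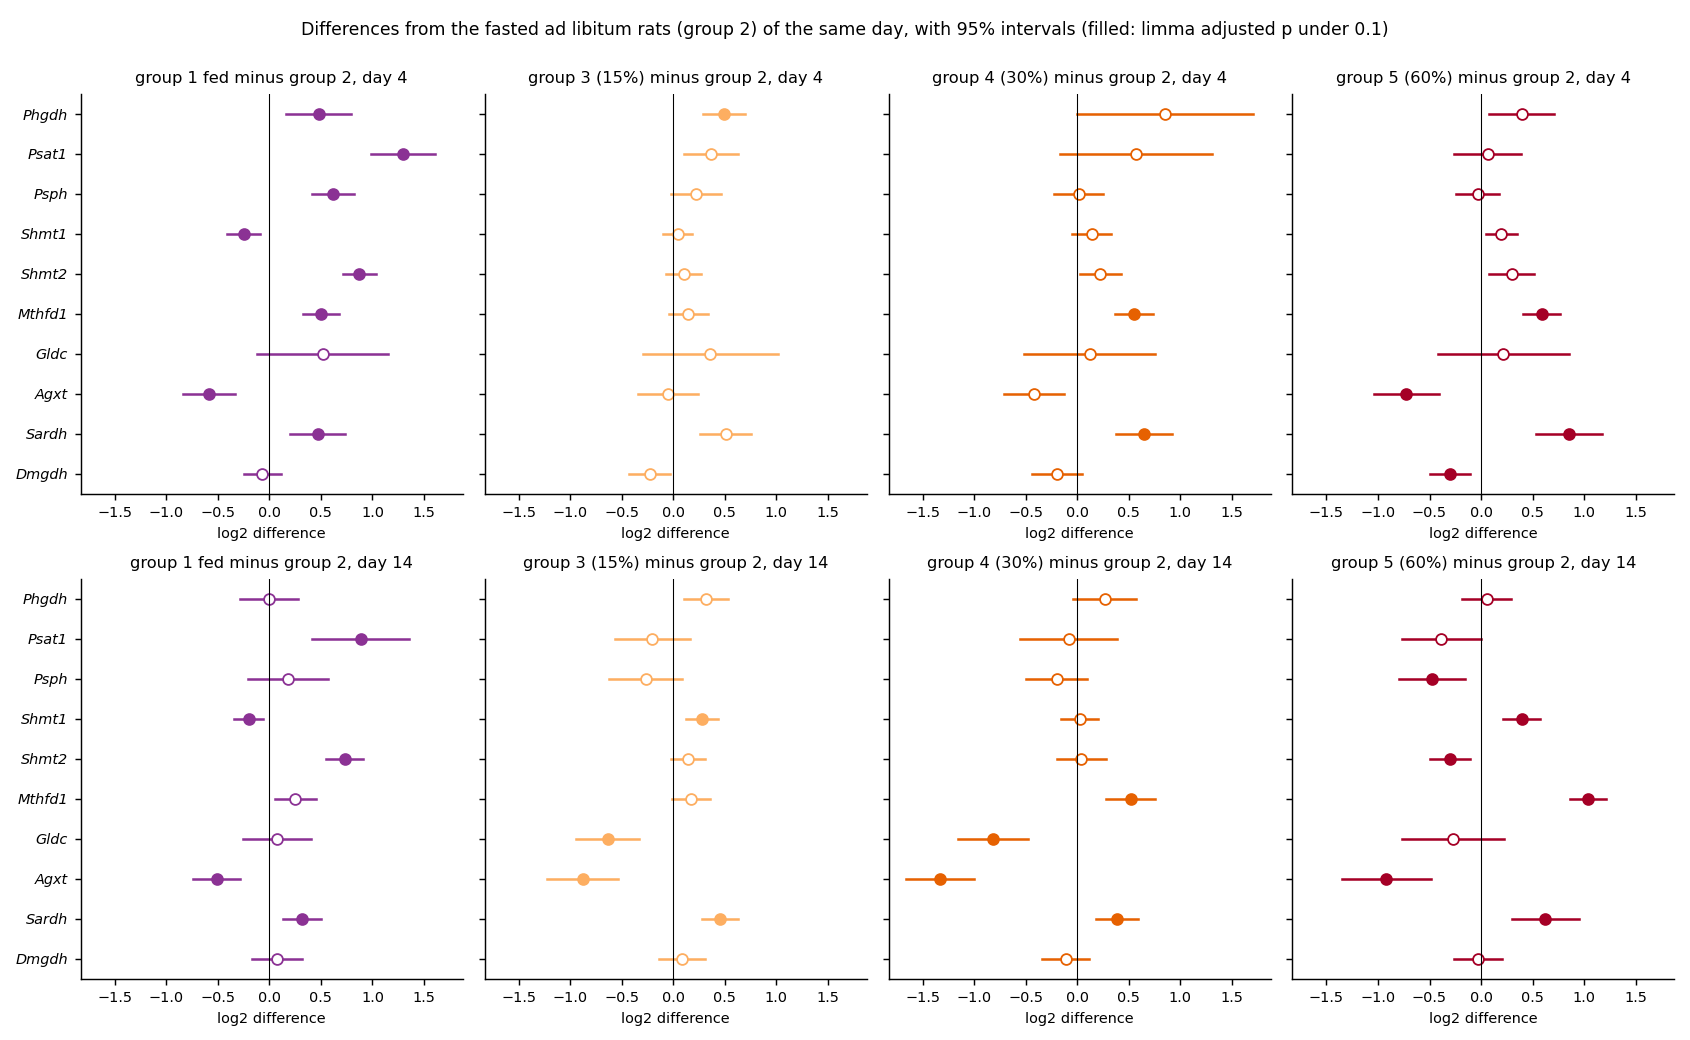
Log2 difference from group 2 (horizontal axis) of each gene in groups 1, 3, 4 and 5 at day 4 (top) and day 14 (bottom), with 95% intervals; filled points passed limma's adjusted p under 0.1. Psat1 and Shmt2 lie furthest to the right in group 1 at day 4 (1.30 and 0.87), Agxt furthest to the left in group 4 at day 14 (−1.33), and Mthfd1 furthest to the right in group 5 at day 14 (1.03).

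The serine synthesis genes were dim in these livers. Their means over all arrays were 6.05 for Phgdh (chr2:188595700-188624789 in GRCr8), 5.97 for Psat1 (chr1:222623553-222646187) and 6.87 for Psph (chr12:32527091-32541182), at percentiles 29.7, 28.8 and 41.4 of all genes, where the other 7 lay at percentiles 85.4 to 95.0. Psat1, the aminotransferase of the middle step, had the largest difference between fed and fasted rats. It had 6.66, 6.84, 6.73, 7.49 and 7.00 in the group 1 rats at day 4, against 5.75, 5.49, 5.49, 5.83 and 5.67 in group 2. Every fed rat lay above every fasted one, and the difference of 1.30 (standard error 0.14, adjusted p = 0.000152) is 2.46-fold. At day 14 the values were 6.77, 7.09, 6.23 and 6.77 in group 1, against 5.49, 5.64, 6.25, 5.46 and 6.29 in group 2. Here 1 fed rat fell among the fasted ones, and the difference was 0.89 (standard error 0.21, adjusted p = 0.0286). Psat1 was not called in groups 3, 4 or 5 on either day.

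Psph, the phosphatase of the last step, was higher in fed rats at day 4. It had 7.15, 7.26, 7.39, 7.52 and 7.45 in group 1, against 6.98, 6.57, 6.70, 6.63 and 6.79 in group 2. The groups did not overlap, and the difference was 0.62 (standard error 0.09, adjusted p = 0.00111). At day 14 the fed minus fasted difference was 0.18 with a 95% interval of −0.21 to 0.57 (adjusted p = 0.61). The group 2 rats of that day were spread from 6.69 to 7.58. With 60% less food at day 14 Psph was lower, with 6.51, 6.69, 6.57, 6.66 and 6.29 in group 5 and 6.69, 7.01, 7.58, 6.83 and 6.95 in group 2. That difference of −0.47 (standard error 0.15, adjusted p = 0.0507) was not called without rat 5 of group 5, where it was −0.41 (adjusted p = 0.117).

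Phgdh, the dehydrogenase that opens the pathway, behaved differently from Psat1 and Psph. In group 1 at day 4 it was 0.48 higher (standard error 0.14, adjusted p = 0.0448), with rats at 5.88, 5.83, 6.21, 6.64 and 6.34 against 5.46, 5.78, 5.64, 5.81 and 5.83 in group 2, and the lowest fed rat equalled the highest fasted one. The call was lost without rat 5 of group 1 (difference 0.44, adjusted p = 0.104) and in a fit of all groups (adjusted p = 0.195). At day 14 the fed and fasted means were both 5.80, with a difference of −0.01 and an interval of −0.29 to 0.28. In group 3 at day 4 Phgdh was the only one of the 10 genes called, at 6.07, 6.48, 6.21, 6.13 and 6.11 in group 3 and the group 2 values above. The groups did not overlap, but the adjusted p was 0.0998 for a difference of 0.49 (standard error 0.09), and the call was lost without any 1 of 9 of the 10 rats, with adjusted p up to 0.227.

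In group 4 at day 4, 2 rats stood far above the other 3 in both Phgdh and Psat1. Phgdh had 7.87 and 7.50 in rats 2 and 3, and 5.70, 5.83 and 5.88 in rats 1, 4 and 5, so that its SD of 1.04 was the largest of any of the 10 genes in any group. Psat1 had 7.15 and 7.20 in the same rats 2 and 3, and 5.83, 5.39 and 5.52 in the others. With such spread the differences from group 2 were not called, at 0.85 (interval −0.002 to 1.71, adjusted p = 0.303) for Phgdh and 0.57 (interval −0.16 to 1.30, adjusted p = 0.443) for Psat1. Asns, asparagine synthetase and like Psat1 a known target of the transcription factor ATF4, was also high in these rats, at 7.29 and 6.71 against 5.13 to 5.56 in the other 3. Among the 8 listed genes, made up of Atf4 and genes it is known to activate, Atf4 itself (11.13 and 11.11, against 10.67 to 10.91) and Trib3 (8.63 and 7.98, against 7.55 to 7.91) also lay above the other 3 rats in both. Sesn2 lay below them in both, at 9.04 and 9.04 against 9.28 to 9.94. Chac1, Ddit3 and Mthfd2 did not set the pair apart, so the list did not move as one in these rats. Slc7a11 did not either, but its mean of 4.73 in this group lay below the dim floor of 4.95. Psph, the third gene of the pathway, was at 6.49 and 6.86 in these rats, where the other 3 had 6.89, 6.52 and 6.97. Over all 49 rats, the deviations of Phgdh and Psat1 from their group means had r = 0.76, and r = 0.49 over the 47 rats without these. Phgdh and Asns had r = 0.69, and r = 0.37 without them. The rats of a group share a diet and a sampling day, and these values are descriptions.

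**Figure D3:**
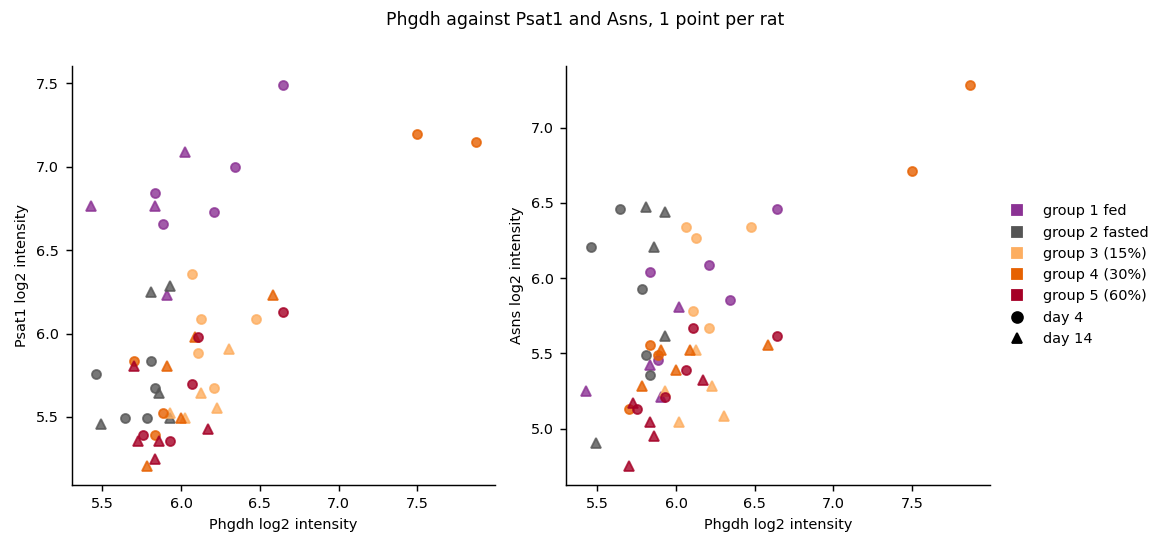
Log2 intensity of Phgdh (horizontal axes) against Psat1 (left) and Asns (right), 1 point per rat, with diet groups in colour, day 4 as circles and day 14 as triangles. The 2 group 4 rats of day 4 at Phgdh 7.50 and 7.87 lie apart from the other rats in both plots, and group 1 lies high in Psat1 on both days, with Phgdh means of 6.18 at day 4 and 5.80 at day 14.

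The hydroxymethyltransferases moved in opposite directions between fed and fasted rats. Shmt2, the mitochondrial enzyme (chr7:65244247-65249580), had 11.64, 11.56, 11.51, 11.39 and 11.61 in group 1 at day 4, against 10.74, 10.64, 10.80, 10.47 and 10.70 in group 2. Its difference of 0.87 (standard error 0.07, adjusted p = 1.6e-05, 1.83-fold) had the smallest adjusted p of the 10 genes in that comparison. At day 14 Shmt2 had 11.71, 11.56, 11.56 and 11.71 in group 1, against 10.93, 10.94, 10.97, 10.68 and 11.00 in group 2. No fed rat overlapped a fasted one on either day, and the day 14 difference was 0.73 (standard error 0.08, adjusted p = 0.000384). Shmt1, the cytosolic enzyme (chr10:45968959-45990341), was lower in fed rats by far less. At day 4 it had 10.71, 10.69, 10.64, 10.81 and 10.53 in group 1, against 10.91, 10.82, 10.82, 11.01 and 11.08 in group 2. The groups did not overlap, and Shmt1 fell by 0.25 on the log2 scale (standard error 0.07, adjusted p = 0.0356). At day 14 its difference was −0.20 (standard error 0.07, adjusted p = 0.0863), a call lost without any 1 of 8 of the 9 rats (adjusted p up to 0.227).

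In group 5 at day 14 both hydroxymethyltransferases differed from group 2 in the direction opposite to that of group 1. Shmt1 had 11.44, 11.43, 11.13, 11.59 and 11.35 in those rats, against 11.00, 11.01, 10.96, 11.06 and 10.93 in group 2. It was higher in every group 5 rat, by 0.39 (standard error 0.08, adjusted p = 0.00769). Shmt2 had 10.44, 10.71, 10.59, 10.79 and 10.47 in group 5 at day 14, against 10.93, 10.94, 10.97, 10.68 and 11.00 in group 2. It fell by 0.30 (standard error 0.09, adjusted p = 0.0384), and 1 group 2 rat, rat 4 at 10.68, lay among the group 5 rats. Shmt1 was also higher in group 3 at day 14, by 0.28 (adjusted p = 0.0464, lost without rat 1 or 2 of group 3 or rat 5 of group 2, with adjusted p of 0.113, 0.113 and 0.102). In group 4 at day 14 the Shmt1 difference was 0.02 with an interval of −0.15 to 0.20, so the higher level was not seen at each degree of restriction. Shmt2 was not called in group 3 or 4 on either day. The lower erythroid markers of group 5 at day 14 moved with these differences, and their part was not tested.

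Mthfd1, the cytosolic folate enzyme that interconverts carbon units (chr6:100713510-100781013), was the gene of the 10 with the largest rise in group 5 at day 14. There it had 12.52, 12.43, 12.25, 12.30 and 12.30, against 11.55, 11.28, 11.27, 11.31 and 11.22 in group 2. The groups were far apart, with a difference of 1.03 (standard error 0.08, adjusted p = 1.08e-05), 2.05-fold. At day 4 it had 11.51, 11.57, 11.41, 11.59 and 11.82 in group 5, against 11.05, 11.04, 10.79, 11.03 and 11.05 in group 2, a difference of 0.59 (standard error 0.08, adjusted p = 0.00308). Group 4 was higher as well, by 0.55 at day 4 (standard error 0.08, adjusted p = 0.00825) and by 0.52 at day 14 (standard error 0.11, adjusted p = 0.0124). In group 3 the differences of 0.14 and 0.17 were not called (adjusted p = 0.616 and 0.346, with intervals reaching 0.33 and 0.35). Mthfd1 was also higher in fed rats at day 4, at 11.48, 11.33, 11.42, 11.51 and 11.72 in group 1, by 0.50 (standard error 0.08, adjusted p = 0.00188). The fed minus fasted difference of 0.25 at day 14 was not called (adjusted p = 0.119).

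Agxt, the aminotransferase that turns glyoxylate into glycine and can also use serine as amino donor (chr9:101122793-101132746), was lower than in group 2 in every other diet at day 14. Group 4 lay lowest, at 10.42, 10.36, 10.39, 10.48 and 11.18, against 12.05, 11.72, 12.05, 11.67 and 12.00 in group 2. Agxt fell by 1.33 there (standard error 0.15, adjusted p = 0.000324), 2.51-fold lower, and rat 5 of group 4 at 11.18 stood apart from the rest of its group. In group 5 the rats were at 10.62, 10.57, 10.70, 11.38 and 11.64, a difference of −0.92 (standard error 0.20, adjusted p = 0.00892). In group 3 they were at 10.89, 10.98, 11.64, 10.94 and 10.64, a difference of −0.88 (standard error 0.16, adjusted p = 0.00813). The fed rats of group 1 also lay below the fasted control, with differences of −0.51 at day 14 (adjusted p = 0.0137, standard error 0.11) and of −0.58 at day 4 (adjusted p = 0.00577, standard error 0.12). None of these groups overlapped group 2. At day 4, Agxt was lower in group 5, at 11.00, 10.83, 11.28, 11.28 and 10.67 against 12.03, 11.93, 11.66, 11.43 and 11.63 in group 2 (difference −0.72, standard error 0.14, adjusted p = 0.0166). Group 4 was not called at −0.42 (adjusted p = 0.121), nor was group 3 at −0.05 (interval −0.34 to 0.24).

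Gldc, the decarboxylase of the glycine cleavage system (chr1:237296753-237375620), varied widely between rats. At day 4 its group 2 values ran from 8.79 to 10.50, and none of the day 4 differences was called, with intervals that reached from −0.52 to 1.15. At day 14 it was lower in group 4, at 9.38, 9.49, 8.97, 9.37 and 9.83 against 10.44, 10.15, 10.54, 9.88 and 10.12 in group 2, by 0.82 (standard error 0.16, adjusted p = 0.00765). It was lower in group 3 by 0.64 (standard error 0.14, adjusted p = 0.0224), while group 5, with rats from 9.41 to 10.68, was not called (difference −0.27, interval −0.76 to 0.23). Gldc has 2 other probe sets on the array. In group 4 at day 14 they gave −0.67 (adjusted p = 0.00466) and −0.26 (adjusted p = 0.112), and in group 3 −0.45 (adjusted p = 0.12) and −0.23 (adjusted p = 0.236), so the direction was shared but only the first was called. The probe set with the difference of −0.26 had group means of 4.75 to 5.12, near the dim floor.

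Sardh, the mitochondrial dehydrogenase that forms glycine from sarcosine (chr3:30908621-30973409), had a higher mean than in group 2 in all 8 comparisons, and 7 of them were called. With 60% less food it had 10.53, 10.22, 10.70, 10.94 and 10.57 at day 4, against 10.16, 9.68, 9.74, 9.43 and 9.70 in group 2. No rat overlapped, and the difference was 0.85 (standard error 0.15, adjusted p = 0.00799), 1.80-fold. At day 14 it had 10.77, 10.55, 10.53, 11.04 and 11.38 in group 5, against 10.17, 10.04, 10.26, 10.29 and 10.41 in group 2, a difference of 0.62 (standard error 0.15, adjusted p = 0.0154). Group 4 was 0.65 higher at day 4 (adjusted p = 0.0184) and 0.39 higher at day 14 (adjusted p = 0.0257), and group 3 was 0.45 higher at day 14 (adjusted p = 0.00684). The comparison not called was group 3 at day 4, with a difference of 0.51 (interval 0.26 to 0.75, adjusted p = 0.142). Fed rats were higher by 0.47 at day 4 (adjusted p = 0.023) and by 0.32 at day 14 (adjusted p = 0.0441). The day 14 call was lost without rat 1 of group 1 (difference 0.27, adjusted p = 0.13) and with the other Sardh probe set (difference 0.18, adjusted p = 0.341). That other probe set called the same 6 remaining comparisons, with differences of 0.34 to 0.75.

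Dmgdh, the dehydrogenase 1 step before Sardh in choline breakdown (chr2:26647540-26722496), did not follow it. Its group means spanned 0.30 on the log2 scale, the smallest range of the 10 genes, where Psat1 spanned 1.51. It was called once against group 2, at day 4 in group 5, with 11.20, 11.12, 11.11, 11.32 and 11.33 against 11.78, 11.36, 11.38, 11.61 and 11.47. The groups did not overlap, and the difference of −0.30 (standard error 0.09, adjusted p = 0.0841) was lost without any 1 of 8 of the 10 rats (adjusted p up to 0.188). At day 14 the difference in group 5 was −0.03 with an interval of −0.27 to 0.20.

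Sardh and Agxt ran against each other between groups and with each other within them. Over the 10 means of group and day, Sardh and Agxt had r = −0.71. Over the deviations of 49 rats from their group means they had r = 0.67. In group 5 at day 14 the rats with the highest Sardh, 11.38 and 11.04, were also those with the highest Agxt, 11.64 and 11.38. Rat 5 of group 4 at day 14, with the highest Agxt of its group, also had its highest Sardh, 10.85. Gldc went with both within groups (r = 0.46 with Sardh and 0.58 with Agxt), while Mthfd1 did not (r = −0.18 and −0.41), although Mthfd1 and Sardh had r = 0.84 over the group means. Psat1, Psph and Shmt2 had r of 0.82 to 0.89 with one another over the group means, which the fed groups share, and of 0.12 to 0.23 within groups. Without the 2 group 4 rats of day 4 that were high in Phgdh, the within-group r of Psat1 with Psph was 0.41. That of Shmt2 was then 0.06 with Psat1 and 0.17 with Psph. Rats of a group share a diet and a day, and these correlations are descriptions.

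**Figure D4:**
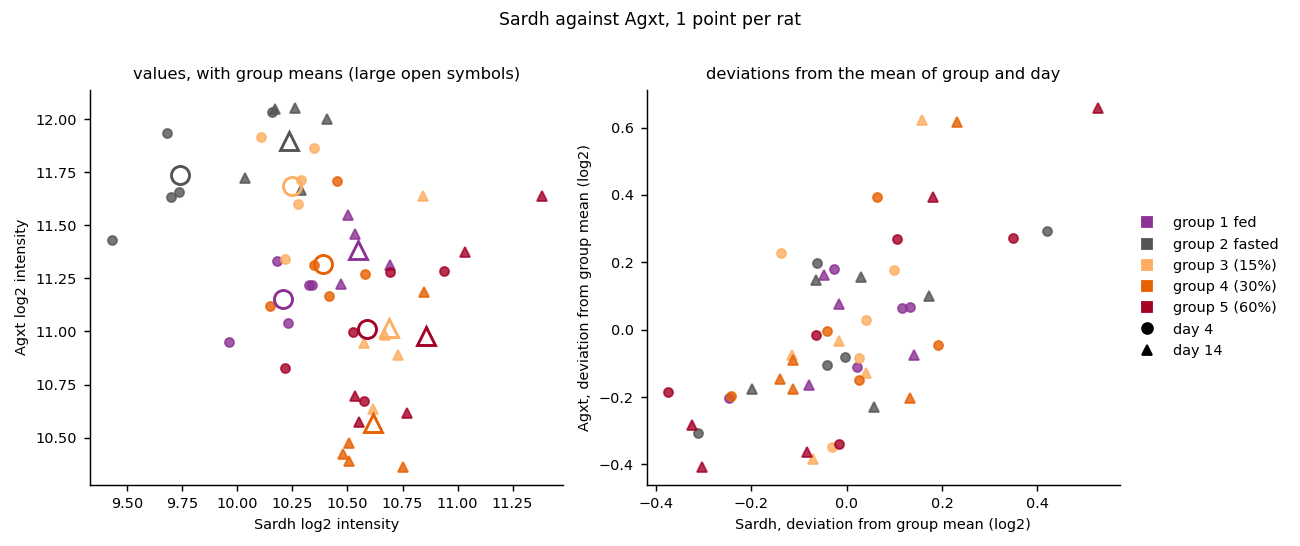
Sardh (horizontal axes) against Agxt (vertical axes), 1 point per rat, coloured by diet group, with day 4 as circles and day 14 as triangles. On the left, log2 intensities with group means as large open symbols, which run downwards (r = −0.71); on the right, deviations from the mean of each group and day, which run upwards (r = 0.67).

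Between the days, the fasted and fed ad libitum groups showed no called difference in any of the 10 genes by limma. In group 1, 0% of all genes were called (2125 of 14217 had an unadjusted p under 0.05) and 3 of the 10 had an unadjusted p under 0.05. In group 2, 0.00703% of all genes were called (1230 of 14217 had an unadjusted p under 0.05), and again 3 of the 10 had an unadjusted p under 0.05. In group 3, 7 of the 10 genes differed, 5 higher and 2 lower at day 14, where 12.8% of all genes differed. Sardh was 0.44 higher at day 14 than at day 4 in group 3 (adjusted p = 0.00543), Mthfd1 0.36 (adjusted p = 0.0411), Shmt1 0.30 (adjusted p = 0.0265), Shmt2 0.28 (adjusted p = 0.0485) and Dmgdh 0.22 (adjusted p = 0.0974), while Agxt fell by 0.67 (adjusted p = 0.038) and Psat1 by 0.39 (adjusted p = 0.0736). Of these, Shmt2 was lost without rat 1 of group 3 at day 14 (difference 0.26, adjusted p = 0.114), Psat1 without any 1 of 6 rats (adjusted p up to 0.154) and Dmgdh without any 1 of 8 (adjusted p up to 0.182). In group 2, where none was called, Sardh was 0.49 higher at day 14 (adjusted p = 0.337), Mthfd1 0.335 (adjusted p = 0.337) and Shmt2 0.24 (adjusted p = 0.486). For Shmt1, Dmgdh, Agxt and Psat1 the group 2 differences were 0.07, −0.09, 0.16 and 0.18. The difference of group 3 from group 2 changed between the days by −0.05 for Sardh, 0.03 for Mthfd1 and 0.04 for Shmt2, none called. In group 4 Agxt alone differed, lower by 0.75 at day 14 (standard error 0.16, adjusted p = 0.0333), where 5.47% of all genes differed. In group 5, where 6.71% of all genes differed, Mthfd1 was 0.78 higher at day 14 than at day 4 (standard error 0.09, adjusted p = 0.00355), with no overlap between the days. Shmt2 was 0.36 lower (adjusted p = 0.0822), lost without any 1 of 6 of the 10 rats (adjusted p up to 0.196).

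Whether the difference from group 2 itself changed between the days was tested as an interaction. For group 5, where 2.04% of all genes were called, Shmt2 and Mthfd1 passed. The Shmt2 difference from group 2 was −0.30 at day 14 and 0.30 at day 4, a change of −0.60 (standard error 0.13, adjusted p = 0.0464), and the call held without any 1 of the 20 rats (adjusted p up to 0.0978). The Mthfd1 difference was 1.03 at day 14 and 0.59 at day 4, a change of 0.45 (standard error 0.11, adjusted p = 0.0754), a call lost without any 1 of 13 of the 20 rats (adjusted p up to 0.156). No gene of the 10 passed for group 1, 3 or 4 by limma, where 0%, 0.591% and 0.134% of all genes were called. At an unadjusted p under 0.05 there were 2, 6 and 2 of the 10, beside 903, 1411 and 1398 of all 14217 genes. The changes of Gldc were −0.93 for group 4 (adjusted p = 0.361) and −0.997 for group 3 (adjusted p = 0.292), and those of Agxt were −0.91 (adjusted p = 0.138) and −0.83 (adjusted p = 0.132).

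Across the fasted groups, a linear trend per 10 percentage points less food summarised each gene in 1 number. At day 4, where 8.82% of all genes had a called trend, Sardh rose by 0.13 per step (adjusted p = 0.00194), Mthfd1 by 0.10 (adjusted p = 0.00161), Shmt2 by 0.05 (adjusted p = 0.0557) and Shmt1 by 0.03 (adjusted p = 0.0832), and Agxt fell by 0.13 (adjusted p = 0.00209). At day 14, where 24% of all genes had one, Mthfd1 rose by 0.18 (adjusted p = 7.2e-07), Sardh by 0.09 (adjusted p = 0.0085) and Shmt1 by 0.05 (adjusted p = 0.0441), and Agxt fell by 0.13 (adjusted p = 0.0661), Psph by 0.07 (adjusted p = 0.0299) and Shmt2 by 0.06 (adjusted p = 0.024). Mthfd1 climbed through every group mean at day 14, with 11.33, 11.50, 11.85 and 12.36 at 0%, 15%, 30% and 60% less food, whereas Agxt had 11.90, 11.02, 10.57 and 10.98 and was lowest at 30%. Without any 1 rat, the trend of Shmt1 was lost in 9 of 20 cases at day 4 (adjusted p up to 0.189) and without rat 4 of group 5 at day 14 (adjusted p = 0.128), that of Agxt at day 14 in 7 of 20 (adjusted p up to 0.134) and that of Shmt2 at day 4 without rat 1, 3 or 4 of group 5 or rat 4 of group 2 (adjusted p up to 0.141).

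**Figure D5:**
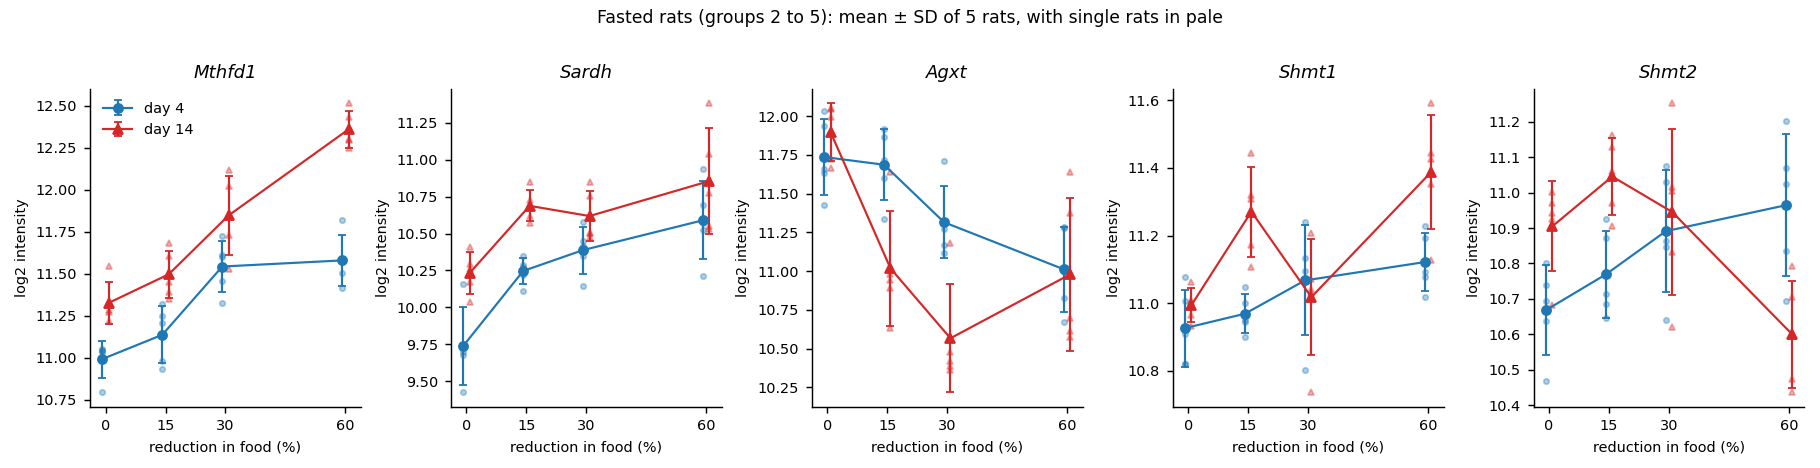
Log2 intensity (vertical axes) of 5 genes in the fasted rats by the reduction in food in percent (horizontal axes), as mean ± SD of 5 rats with single rats in pale, day 4 in blue and day 14 in red. Mthfd1 reached 12.36 at 60% less food on day 14, Agxt was lowest at 30% on day 14 (10.57), and the 2 days of Shmt2 part at 60% (10.60 at day 14 and 10.96 at day 4).

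Neighbouring enzymes of the pathway were counted by list, with no test of a list as a whole. Of 9 measured genes of serine breakdown and glyoxylate handling, 3 were higher and none lower in group 5 on each day. The list medians were 0.15 at day 4 and 0.00 at day 14, beside 0.01 and 0.00 over all genes. Calls over all genes in group 5 made up 3.56% upward and 3.58% downward on day 4. By day 14 these shares had grown to 8.88% upward and 10.9% downward, so the same list count stood against a larger background. Sds, the serine dehydratase that yields pyruvate, rose by 1.94 in group 5 at day 4 (adjusted p = 0.0118) and by 1.48 at day 14 (adjusted p = 0.00427), and it was 1.23 lower in fed than in fasted rats at day 14 (adjusted p = 0.0721). Its relative Sdsl rose by 0.72 in group 5 at day 14 (adjusted p = 0.00237). Of the 3 glycine cleavage partners of Gldc, all 3 were higher in group 1 at day 4 (Dld by 0.26, Amt by 0.20 and Gcsh by 0.18, adjusted p = 0.0389, 0.039 and 0.0383). In that comparison 9.76% of all genes were higher. In group 4 and group 3 at day 14, where Gldc was lower, none of the 3 was called and none had an unadjusted p under 0.05. Amt fell by 0.35 in group 5 at day 14 (adjusted p = 0.014).

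Among 18 measured folate enzymes and transporters, group 5 at day 14 had 4 higher and 4 lower, with a list median of 0.02. Of all genes, 8.88% were higher and 10.9% lower there. Aldh1l2, the mitochondrial enzyme that oxidises formyl-folate to carbon dioxide, fell by 0.98 there (adjusted p = 0.00634), and Fpgs, which adds glutamates that hold folate in the cell, fell by 0.61 in group 5 at day 4 (adjusted p = 0.0201). The fed rats of day 4 had 3 higher and 3 lower, beside 9.76% and 11.5% of all genes. The cytosolic formyl-folate oxidiser Aldh1l1 was up by 0.91 (adjusted p = 1.84e-05) and the folate transporter Slc46a1 by 0.88 (adjusted p = 0.00114). Fpgs was lower in fed rats too, by 0.75 at day 4 (adjusted p = 0.00704) and by 0.40 at day 14 (adjusted p = 0.077). Its lower level was therefore not particular to restricted rats. Of 8 measured genes of choline oxidation and methyl handling, Chdh, which starts choline oxidation, rose by 0.54 in group 5 at day 4 (adjusted p = 0.0142) and by 0.70 in group 3 at day 14 (adjusted p = 0.00214). Etfdh, which passes electrons from dehydrogenases such as Sardh and Dmgdh to the respiratory chain, fell by 0.81 in group 5 at day 14 (adjusted p = 1.08e-05) and by 0.59 at day 4 (adjusted p = 0.00214). It was also called lower in fed rats at day 4, by 0.48 (adjusted p = 0.000954), in group 4 on both days and in group 3 at day 14. Chdh and Etfdh were the only 2 of the 8 called in group 5 on each day. The shares of all genes there were 3.56% higher and 3.58% lower at day 4, and 8.88% and 10.9% at day 14. Atf4 and genes it is known to activate made up a list of 8 measured genes. In group 1, where Psat1 was higher on each day, none of the 8 was higher and only Trib3 was lower. Trib3 fell by 0.68 at day 4 (adjusted p = 0.0841) and by 1.06 at day 14 (adjusted p = 0.0295). Calls over all genes in group 1 made up 9.76% upward and 11.5% downward on day 4. On day 14 these shares were 7.26% upward and 5.92% downward. Counts among 8 genes are too small to set apart from such shares. A part of ATF4 in the Psat1 difference was not tested. In group 5 at day 14 Asns fell by 0.88 (adjusted p = 0.0408) while Ddit3, a stress-induced factor, rose by 0.54 (adjusted p = 0.00283). The Asns mean there was 5.05, near the dim floor of 4.95, and the group 2 rats of that day ran from 4.91 to 6.48.

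For each of the 10 genes, the gene most alike in its 10 group means was sought among 3150 genes above the dim floor whose means spanned at least 0.5. They were Erp29 for Shmt2 (r = 0.988), Spout1 for Shmt1 (r = 0.981), Ddit4 for Mthfd1 (r = 0.966), Sri for Psat1 (r = 0.965), Helz2 for Psph (r = 0.964), Plcb1 for Sardh (r = 0.963), Marchf7 for Agxt (r = 0.949), Slc13a5 for Gldc (r = 0.899), Dnajb6 for Dmgdh (r = 0.879) and Bcar3 for Phgdh (r = 0.847). Each is the highest of 3150 values over only 10 points, and the groups of a day share their sampling. In the order of the levels, Psat1 was lowest in group 5 at day 14 (5.44) and highest in group 1 at day 4 (6.94), Shmt2 was likewise lowest in group 5 at day 14 (10.60) and had its highest means, 11.63 and 11.54, in group 1 at days 14 and 4, and Mthfd1 had its lowest mean in group 2 at day 4 (10.99). The neighbours in these orders at the top, group 1 at day 14 and at day 4, differed by 0.09 for Shmt2 (interval −0.06 to 0.25) and by −0.23 for Psat1 (interval −0.66 to 0.19), within the spread of the rats.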

How the data were processed

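RNA from 49 livers was hybridised to Affymetrix Rat Genome 230 2.0 arrays, 1 per rat. The authors deposited intensities of 31042 probe sets, background-corrected, quantile-normalised and summarised by RMA (Affymetrix Expression Console, with R 3.0.1 and affy 1.38.1 in the submitters' processing notes) and rounded to whole numbers on the linear scale. They were transformed to log2 here with no further normalisation. Of the probe sets, 20826 carried 1 gene symbol, 436 several and 9780 none, by GEO's platform annotation. Each of 14217 genes was read through its probe set with the highest mean, which was a choice for 4525 of them. No pair of arrays was identical, and arrays of a group had a median correlation of 0.991 to 0.994. For arrays it is the number of rats that limits the precision.

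Groups came from the sample labels. limma 3.58.1 in R 4.3.3 (lmFit, contrasts, eBayes) was fitted to only the groups compared, with Benjamini-Hochberg adjustment over all genes and a threshold of 0.1, the level named in the methods. The empirical Bayes package of the methods was not used here. There were 19 comparisons: each diet against group 2 on each day, the days within each group, the interaction of each with day, and a linear trend over groups 2 to 5 on each day. Named genes were the 10 members and those called in the pathway lists. The members, lists and comparisons were chosen with earlier results of these data known. The alternatives were an adjusted p under 0.05, a minimum change of 1.5-fold, dim genes left out, the mean of a gene's probe sets, quantile normalisation again, 1 fit of all groups, array weights, robust eBayes and each rat left out. The fit was tested on simulated data. Promoter windows came from RefSeq (GRCr8). Python 3.11.15 with pandas 2.3.3, numpy 2.4.6 and matplotlib 3.10.9 made the tables and plots.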

Additional observations from a re-analysis of the deposited data

Results flagged for a closer look

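In 6 of the 100 combinations of gene and group, 1 rat stood apart from the others of its group by Dixon's test, where chance gives about 1 in 20. Agxt in rat 5 of group 4 at day 14 was 11.18, and the other 4 rats had 10.36 to 10.48. Without this rat the difference of group 4 from group 2 was −1.49 in place of −1.33. Dmgdh in rat 1 of group 4 at day 14 was 11.09, below the 11.33 to 11.41 of the others. Among the fasted controls at day 14, rat 4 was low in both Phgdh (5.49, against 5.81 to 5.93 in the other 4) and Shmt2 (10.68, against 10.93 to 11.00), and rat 1 was high in Mthfd1 (11.55, against 11.22 to 11.31). Rat 3 of group 2 at day 4 was low in Mthfd1, at 10.79 against 11.03 to 11.05.

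The difference of group 5 from group 2 changed between the days for 2 genes, by limma's interaction term. For Shmt2 the change from day 4 to day 14 was −0.60 (adjusted p = 0.0464), with a group 5 minus group 2 difference of −0.30 at day 14 and 0.30 at day 4. For Mthfd1 it was 0.45 (adjusted p = 0.0754), with differences of 1.03 at day 14 and 0.59 at day 4.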

How the results depend on the processing

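Of 190 differences (10 genes in 19 comparisons), 57 were called by limma, 41 of them also without any 1 rat. None of these 57 changed direction under any alternative. Differences not called were not checked for direction and could change it. The Gldc difference of group 1 from group 2 at day 14 was 0.07, and −0.18 with another probe set, neither called. A minimum change of 1.5-fold left 3 of 8 calls in group 1 at day 4 and 2 of 5 at day 14, 1 of 2 in group 4 at day 4, 0 of 1 in group 3 at day 4, 3 of 6, 2 of 4 and 2 of 4 in groups 5, 4 and 3 at day 14, 1 of 2 and 1 of 7 between days in groups 5 and 3, and 1 of 2 for the interaction of group 5 with day. At an adjusted p under 0.05 the counts were 0 in group 3 at day 4, 1 between days in group 5, 1 for the interaction of group 5 and 3 of 5 for the trend at day 4. With the mean of a gene's probe sets, or with quantile normalisation again, none was called in group 3 at day 4. Renewed quantile normalisation left 4 of 7 calls between days in group 3 and called 1 interaction of group 4 (Agxt, −0.93). One fit of all groups called 2 genes between days in group 4 in place of 1 and 1 in group 2 in place of 0 (Sardh). Array weights called 1 interaction of group 3 (Agxt, −0.90). The causes were not tested.

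Leaving out each rat in turn gave 0 to 1 call in group 3 at day 4, 3 to 5 in group 1 at day 14, 1 to 3 and 1 to 2 between days in groups 5 and 4, 1 to 2 for the interaction of group 5, 0 to 1 for those of groups 4 and 3, and 3 to 6 for the trend at day 4. No paired analysis was possible because the labels give the rats no shared numbers. With 4 or 5 rats a group, and rounded intensities of the dim serine synthesis genes, small differences in these genes could not be told from the spread between rats.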
